A study of Mus musculus with 18 samples.

Results

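The small leucine-rich proteoglycans form a family of secreted matrix proteins, and their messenger RNAs were followed here in mouse fibroblasts that lost the Polycomb enzyme Ezh2. The 10 genes were listed by name, without a cut on their values, but with earlier results of these data known. They are Dcn, Lum, Fmod, Bgn, Ogn, Omd, Prelp, Kera, Aspn and Epyc. Each had 1 probe set carrying its symbol alone, so all 10 are among the 18820 genes measured. RNA came from iMEFs, mouse embryonic fibroblasts immortalised with a retrovirus carrying c-MYC, of clone C2. The methods describe a single clone, obtained by limiting dilution from a pool of cells. In that pool 1 Ezh2 allele was already deleted, the other was flanked by loxP sites, and ROSA26 expressed a tamoxifen-dependent Cre recombinase. That was the starting genotype of every group, and no second clone was measured. Tamoxifen served to delete the remaining allele. In the time course, 8 arrays covered vehicle (ethanol) and 5, 18 and 32 days after tamoxifen, with 2 arrays per group. In the rescue experiment, 10 arrays covered the control (Ezh2 WT), Ezh2 -/- cells, and cells given a Flag-tagged Ezh1 or Ezh2 retrovirus before the deletion (Ezh1 and Ezh2 pre-rescue) or Ezh2 after it (Ezh2 post-rescue), again with 2 arrays per group. The time between tamoxifen and harvest in the rescue experiment is not given in the sources used here.

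Small leucine-rich proteoglycans have a horseshoe-shaped core of leucine-rich repeats, and most carry chondroitin, dermatan or keratan sulfate chains. They bind collagen fibrils and set their spacing and diameter, and several also bind growth factors or signalling receptors. Connective tissues such as skin, tendon, cornea and cartilage are their main sources. In the mouse genome many of the genes lie side by side in small clusters, and Ezh2 is the catalytic subunit of PRC2, the complex that places H3K27me3, a histone mark of silent genes.

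The region in front of the start site is shown for 3 of the genes, because 2 of them, Fmod and Prelp, are neighbours on chromosome 1 that fell together after tamoxifen, whereas Bgn, on chromosome X, changed little. Each run covers the 250 bases before the start of transcription of the RefSeq gene in build GRCm38.p6, written 5' to 3' on the strand of the gene, with each CG dinucleotide in capitals.
Fmod (chr1:134037004-134037253, plus strand): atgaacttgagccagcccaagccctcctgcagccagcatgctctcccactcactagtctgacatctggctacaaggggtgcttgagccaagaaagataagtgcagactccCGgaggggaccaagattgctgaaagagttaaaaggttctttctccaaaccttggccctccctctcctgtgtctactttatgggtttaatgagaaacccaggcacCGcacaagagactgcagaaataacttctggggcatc
Prelp (chr1:133921402-133921651, minus strand): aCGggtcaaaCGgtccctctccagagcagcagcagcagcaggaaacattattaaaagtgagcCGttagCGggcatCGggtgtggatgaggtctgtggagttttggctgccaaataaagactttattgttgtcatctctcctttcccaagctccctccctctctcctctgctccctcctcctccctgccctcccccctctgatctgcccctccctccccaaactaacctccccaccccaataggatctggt
Bgn (chrX:73483351-73483600, plus strand): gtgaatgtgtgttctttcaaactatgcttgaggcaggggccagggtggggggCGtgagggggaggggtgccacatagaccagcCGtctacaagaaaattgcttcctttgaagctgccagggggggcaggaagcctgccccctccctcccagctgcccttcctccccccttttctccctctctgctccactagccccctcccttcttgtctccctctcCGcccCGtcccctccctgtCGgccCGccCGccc
The stretch of Fmod held 2 CG dinucleotides, that of Prelp 5 and that of Bgn 7. Over the 18155 promoters of 14749 measured genes the median was 11, with quartiles of 4 and 20. The promoters of Ogn, Omd, Kera and Aspn held 4, 1, 1 and 2, and the 2 entries for Epyc held 2 and 0, so all 9 stretches found for 8 of the genes lay below the median of all promoters. Of the other 2, Dcn and Lum, no stretch is shown. TATAAA, the letters of the TATA box, was searched on both strands and stood in the stretches of Ogn and Aspn and in 10.7% of all promoters. GGGCGG, the core of the Sp1 motif, stood in that of Bgn and in 45.9% of all, whereas CACGTG (7.06% of all) and TGANTCA, the AP-1 motif (5.9% of all), stood in none of the 9. A match of letters is a description of the sequence and not a mapped binding site.

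The arrays give log2 intensities made by the authors with RMA. The lowest probe set read 1.68 to 1.86 per array in the time course and 2.29 to 3.33 in the rescue experiment. The experiments therefore do not share a scale, and levels are compared only within an experiment and never between genes. Replicates of a group correlated at 0.994 to 0.998 over all genes. Of 10 fibroblast markers, 9, among them Col1a1, Vim and Twist1, read above the array's median gene on every array. Of 11 cartilage and tendon markers, 5 did so on every array of the time course and 6 on every array of the rescue experiment. None of 5 bone, 7 epithelial and 6 endothelial markers did, and of 7 blood and 6 muscle markers only Cd68 and Acta2 did. The Ezh2 probe set read 9.37 and 9.43 in vehicle, 9.29 and 9.20 on day 5, 9.80 and 9.63 on day 18, and 9.73 and 9.81 on day 32; it differed from vehicle by -0.16 ± 0.08 at day 5 (adjusted p = 0.259) and was higher by 0.38 ± 0.08 at day 32 (adjusted p = 0.0068). In the rescue experiment it read 10.36 and 10.56 in the control, 10.46 and 10.48 in Ezh2 -/- cells, 10.15 and 10.30 with Ezh1 supplied beforehand, 12.26 and 11.84 with Ezh2 supplied beforehand, and 12.55 and 12.12 with Ezh2 supplied afterwards. The methods place the deleted stretch in the part that encodes the SET domain, the catalytic domain, but where the probes of the array lie relative to it is not given in the sources used here, so the endogenous readings check nothing about the deletion. The Ezh1 probe set read 11.68 and 11.85 in Ezh1 pre-rescue and between 9.19 and 9.84 on the other 8 arrays of that experiment.

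The time course addresses how expression moves as the mark is lost over successive divisions. Small leucine-rich proteoglycan RNAs were first slightly higher and then much lower: 5 of the 10 rose at day 5, 8 fell by day 18 and all 10 had fallen at day 32. The falls at day 32 were largest for Lum, 11.9-fold, Dcn, 7.42-fold, and Prelp, 4.39-fold. At least 2-fold falls were called for 7 genes, and the share of all genes with such a fall was not counted. Epyc, among the 7 at 2.16-fold, read below the 30th percentile of genes on both day 32 arrays. Of all genes measured, 11% rose at day 5, 10.5% fell at day 18 and 14.2% fell at day 32, by the same rule of an adjusted p under 0.05 at any fold (limma, Benjamini-Hochberg over all genes). The median change of the 10 genes was 0.35 on day 5, -0.89 on day 18 and -1.48 on day 32 on the log2 scale, against -0.01, -0.02 and -0.02 over all genes. In bulk RNA, fewer cells making a transcript and less transcript per cell cannot be told apart.

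**Figure D1:**
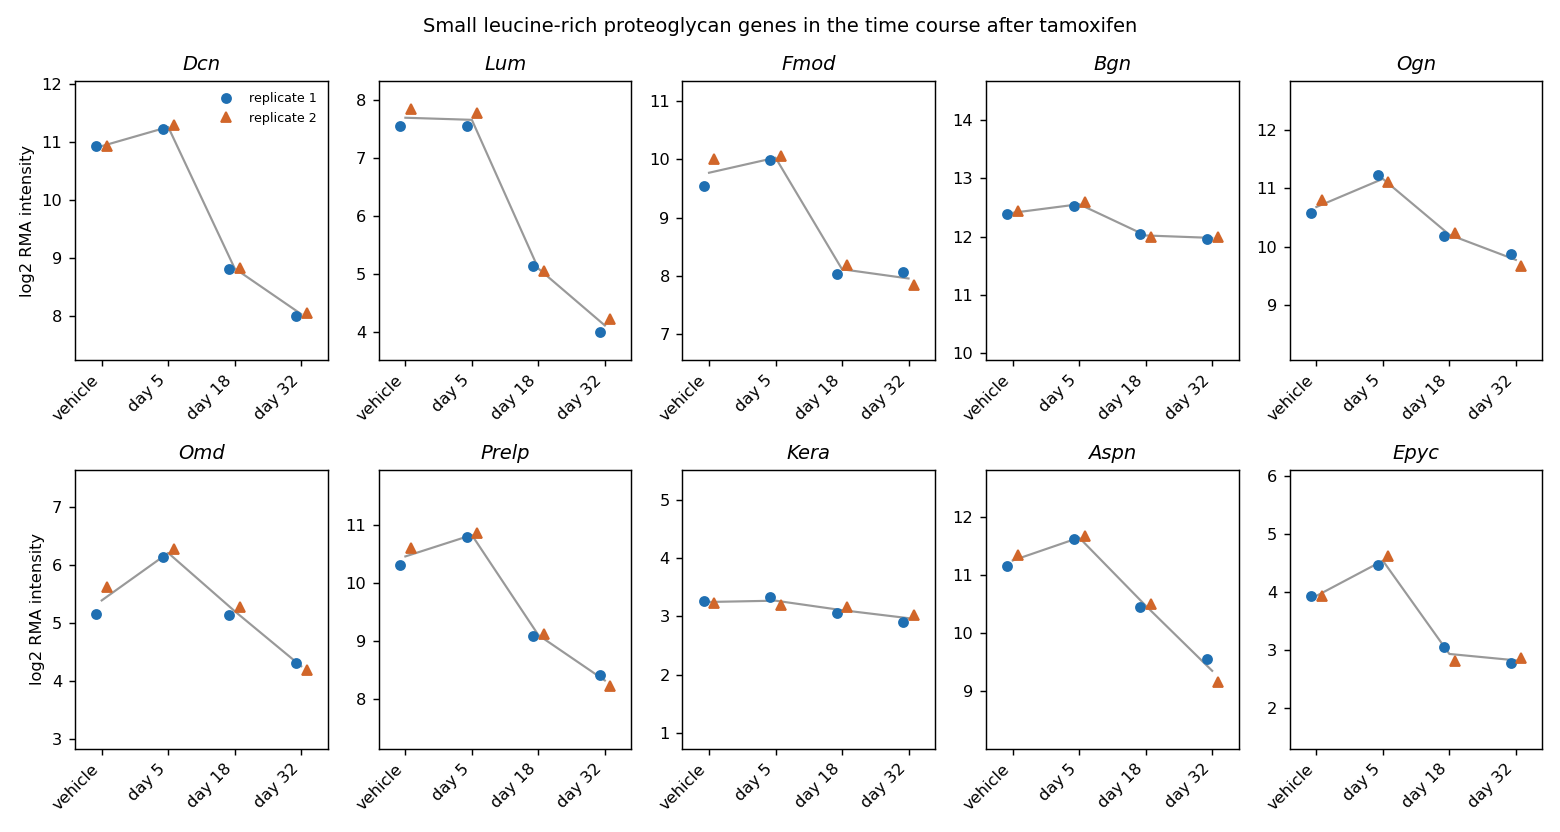
Log2 RMA intensity of each of the 10 genes on the 8 arrays of the time course. Circles and triangles are replicates 1 and 2, the grey line joins the group means, and each panel spans the same 4.8 log2 units around its own middle; Lum drops from 7.54 and 7.84 in vehicle to 4.00 and 4.23 on day 32, while Bgn and Kera stay nearly level.

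Decorin, biglycan and asporin make up the first class of the family. Dcn, which encodes decorin, the dermatan sulfate proteoglycan that binds collagen fibrils and sequesters TGF-beta, read 10.92 and 10.93 in vehicle, 11.23 and 11.28 on day 5, 8.82 and 8.83 on day 18, and 8.01 and 8.06 on day 32. No 2 groups overlapped. It rose by 0.33 ± 0.07 at day 5 on the log2 scale, where ± gives the standard error of the fit here and in what follows (adjusted p = 0.0108), a call that was lost with the arrays centred on their medians (0.18, adjusted p = 0.0767), in a fit of all 18 arrays (0.682) and without day 5 replicate 2 (0.0688). Dcn had fallen by 2.11 ± 0.07 on day 18 (adjusted p = 1.38e-07) and by 2.89 ± 0.07 on day 32 (adjusted p = 1.34e-08). Aspn, which encodes asporin, a decorin relative with a run of aspartates in place of the sugar chain, read 11.15 and 11.34, then 11.61 and 11.66, 10.44 and 10.49, and 9.54 and 9.15 at the same times. It changed by -0.78 ± 0.12 up to day 18 and by a further -1.12 ± 0.12 from day 18 to day 32 (adjusted p = 0.0017), and ended 3.73-fold lower than vehicle. Bgn, which encodes biglycan, a close relative of decorin that also engages Toll-like receptors, ranged only from 11.96 to 12.59 over the 8 arrays. Its change at day 32 was -0.43 ± 0.07 (adjusted p = 0.00117), 1.35-fold, small but without overlap between the groups.

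The second class carries keratan sulfate or is related to proteins that do. Lum, which encodes lumican, a keratan sulfate proteoglycan of cornea and skin, read 7.54 and 7.84 in vehicle, 7.54 and 7.76 on day 5, 5.13 and 5.05 on day 18, and 4.00 and 4.23 on day 32. Vehicle and day 5 overlapped (difference -0.04 ± 0.12), and the change at day 32 was -3.57 ± 0.12 (adjusted p = 1.29e-07). It was above the median gene of the array in vehicle and on day 5 and below it on both later days. Fmod, which encodes fibromodulin, a keratan sulfate proteoglycan of tendon and cartilage that shares collagen sites with lumican, read 9.54 and 10.00, 9.99 and 10.07, 8.04 and 8.19, and 8.07 and 7.83. It fell by 1.66 ± 0.14 by day 18 (adjusted p = 3.43e-05), and day 32 did not differ from day 18 beyond its spread (-0.16 ± 0.14, adjusted p = 0.626, groups overlapping). Prelp, which encodes a matrix protein that bridges collagen and heparan sulfate, read 10.31 and 10.61, 10.79 and 10.86, 9.09 and 9.12, and 8.41 and 8.24. Its rise at day 5 was 0.37 ± 0.11 (adjusted p = 0.0446), a call lost with a replicate block (0.0563), with median centring (0.119), in the fit of all 18 arrays (0.577), and without any 1 of the 8 arrays but vehicle replicate 2 (0.0524 to 0.233). By day 32 it fell by 2.13 ± 0.11 (adjusted p = 9.18e-07).

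Omd, which encodes osteoadherin, a keratan sulfate proteoglycan known from bone, had the largest rise of the family at day 5. It read 5.16 and 5.62 in vehicle, 6.14 and 6.27 on day 5, 5.13 and 5.27 on day 18, and 4.31 and 4.20 on day 32. The rise of 0.82 ± 0.14 (adjusted p = 0.00333) did not last, since day 18 overlapped vehicle (-0.19 ± 0.14, adjusted p = 0.369), and the change at day 32 was -1.13 ± 0.14 (adjusted p = 0.000173). Kera, which encodes keratocan, a protein of the corneal stroma, read between 2.91 and 3.34 throughout the time course. It lay below the 30th percentile of genes on all 18 arrays of both experiments. Its change at day 32 was -0.28 ± 0.08 (adjusted p = 0.0277), a call that was lost with quantile normalization (-0.23, adjusted p = 0.0526). The call was also lost without vehicle replicate 1 (-0.27), vehicle replicate 2 (-0.29) or day 32 replicate 1 (-0.22).

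Osteoglycin and epiphycan make up the third class. Ogn, which encodes osteoglycin, also called mimecan, read 10.57 and 10.79 in vehicle, 11.22 and 11.11 on day 5, 10.18 and 10.23 on day 18, and 9.87 and 9.67 on day 32. By day 5 it rose by 0.49 ± 0.10 (adjusted p = 0.0101), which did not pass without vehicle replicate 1 (0.0673), without day 5 replicate 1 (0.0756) or in the fit of all 18 arrays (0.206). It was 1.88-fold lower than vehicle at day 32 (-0.91 ± 0.10, adjusted p = 0.000102). Epyc, which encodes epiphycan, a proteoglycan of growth plate cartilage, read 3.93 and 3.93, 4.46 and 4.62, 3.06 and 2.81, and 2.78 and 2.86. By day 5 it rose by 0.61 ± 0.10 (adjusted p = 0.00289), and its change at day 32 was -1.11 ± 0.10 (adjusted p = 2.66e-05), although it was below the array's median gene at every time. With the lowest 30% of genes by mean left out, 8 of the 10 genes remain in either experiment, without Kera and Epyc.

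The order of the time points was alike in most of the genes. From day 5 to day 18, 9 fell, Kera being the exception, where 16.1% of all genes did. From day 18 to day 32, 6 fell further, Dcn, Lum, Ogn, Omd, Prelp and Aspn, where 2.75% of all genes did. The median change of the 10 was -0.61. Ogn passed narrowly (-0.43 ± 0.10, adjusted p = 0.0468). Its call was lost with median centring (0.0584), with a replicate block (0.0692) and in a fit of all 18 arrays (0.426), which kept 2 of the 6. Fmod, Bgn and Epyc had made most of their change by day 18, and their differences between the last 2 times were -0.16, -0.04 and -0.11. The count of 5 at day 5 fell to 3 without vehicle replicate 1, day 5 replicate 1 or day 5 replicate 2, to 3 with the arrays centred on their medians and to 2 in a fit of all 18 arrays, and no gene rose 2-fold. The count of 6 from day 18 to day 32 was 3 without day 32 replicate 2.

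**Figure D2:**
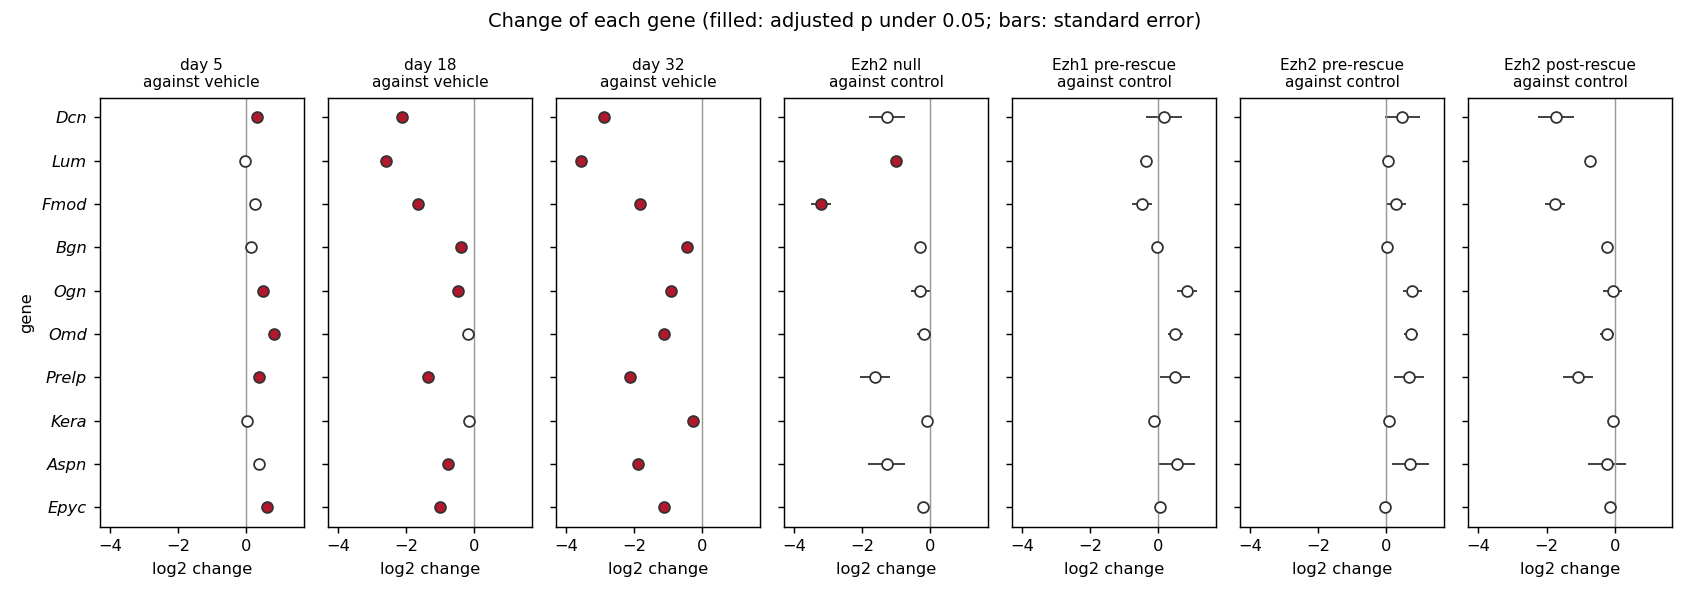
Log2 change with its standard error for each of the 10 genes in 7 comparisons, filled where the adjusted p was under 0.05. After tamoxifen the points move from slightly right of 0 at day 5 to left of it at day 32, where all 10 are filled; in the rescue experiment only Fmod and Lum are filled, in Ezh2 -/- against control.

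The rescue experiment asks which changes follow the loss of Ezh2 and which are prevented or undone by putting Ezh1 or Ezh2 back. In Ezh2 -/- cells all 10 genes had a lower mean than in the control, and 2 fell by the test, Fmod 9.23-fold and Lum 2.00-fold, where 0.755% of all genes fell. The median change of the 10 was -0.65, against -0.03 over all genes. At an unadjusted p under 0.05 (limma, either direction) there were 6 of the 10 and 2910 of the 18820 genes measured. Fmod read 9.78 and 10.40 in the control and 7.29 and 6.47 in Ezh2 -/- cells, a change of -3.21 ± 0.30 (adjusted p = 0.00427). Lum read 6.97 and 6.69 against 5.86 and 5.79, a change of -1.002 ± 0.16 (adjusted p = 0.0258, but 0.0505 without control replicate 1 and 0.137 without Ezh2 -/- replicate 2). For both genes the 2 pairs of arrays were well apart.

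Other members differed between the 2 replicate pairs of this comparison. Dcn read 8.18 and 9.40 in the control and 8.20 and 6.83 in Ezh2 -/- cells, so that the difference was 0.01 in replicate 1 and -2.58 in replicate 2. Aspn did likewise, with 10.96 and 12.02 against 11.07 and 9.34, or 0.11 and -2.68. Ogn and Omd also went both ways, 0.38 and -0.97 for Ogn and 0.31 and -0.68 for Omd. In these 4 genes the control and Ezh2 -/- arrays overlapped, and their mean changes of -1.28 ± 0.53, -1.29 ± 0.55, -0.30 ± 0.28 and -0.18 ± 0.21 did not pass the test (adjusted p = 0.302, 0.319, 0.682 and 0.745). Prelp was lower in both pairs, with differences of -0.64 and -2.60 and a change of -1.62 ± 0.45 (adjusted p = 0.133). Bgn read 12.84 and 13.01 against 12.69 and 12.57 (-0.29 ± 0.09, adjusted p = 0.189). Kera and Epyc changed by -0.10 ± 0.10 and -0.20 ± 0.10 and read below the 30th percentile of genes on every array of this experiment. Without Ezh2 -/- replicate 1 the number that fell was 4, with Prelp (-2.40, adjusted p = 0.0183) and Aspn (-2.36, adjusted p = 0.0141) added, and without Ezh2 -/- replicate 2 it was 1.

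**Figure D3:**
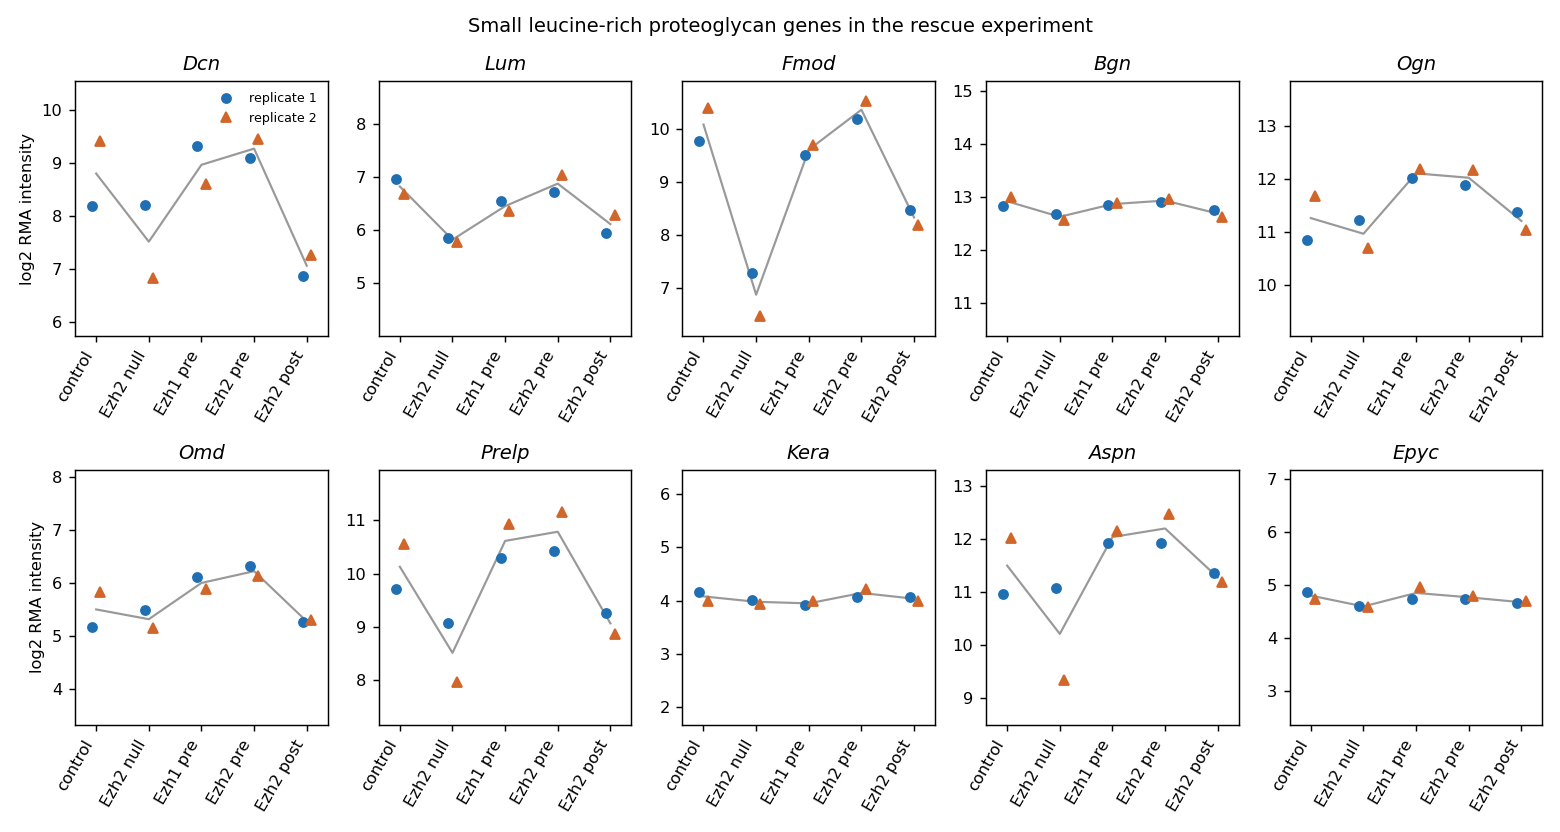
Log2 RMA intensity of each of the 10 genes on the 10 arrays of the rescue experiment, drawn as in the plot of the time course. Fmod reads 7.29 and 6.47 in Ezh2 -/- cells against 9.78 or more in the control and 9.52 or more in both pre-rescue groups, and the replicates of Dcn and Aspn lie far apart in the control and in Ezh2 -/- cells.

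When Ezh2 was supplied before the deletion, Fmod stood at 10.19 and 10.54, next to the control. Against Ezh2 -/- cells 4 genes were higher in Ezh2 pre-rescue, Fmod (3.49 ± 0.30, 11.2-fold, adjusted p = 0.00284), Prelp (2.28 ± 0.45, adjusted p = 0.0284), Lum (1.06 ± 0.16, adjusted p = 0.0158) and Omd (0.90 ± 0.21, adjusted p = 0.047), where 3.15% of all genes were. Every one of the 10 genes read higher on both Ezh2 pre-rescue arrays than on both Ezh2 -/- arrays, as 33.3% of all genes did. At an unadjusted p under 0.05 (limma, either direction) there were 8 of the 10 and 4450 of the 18820 genes measured. Leaving out 1 array at a time moved the count of 4 from 0, without Ezh2 pre-rescue replicate 2, to 8, without either control array, and it was 1 without Ezh2 pre-rescue replicate 1 or Ezh2 -/- replicate 2 and 2 without either Ezh2 post-rescue array. Against the control 0 of the 10 genes were called (limma), and 0% of all genes were called higher. At an unadjusted p under 0.05, in either direction, there were 2 of the 10 and 1928 of the 18820 genes measured. The changes ranged from -0.03 for Epyc to 0.76 ± 0.28 for Ogn.

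Ezh1, the other catalytic subunit that PRC2 can use, was compared in the same way. Ezh1 pre-rescue cells read 9.52 and 9.71 for Fmod, 2.73 ± 0.30 above Ezh2 -/- cells (6.64-fold, adjusted p = 0.0111), the only gene of the 10 called, where 0.861% of all genes were higher. At an unadjusted p under 0.05 (limma, either direction) there were 9 of the 10 and 3785 of the 18820 genes measured. Without overlap, 9 of the 10 read higher than in Ezh2 -/- cells, as 31.1% of all genes did. The median change of the 10 was 0.911, against 1.055 with Ezh2 supplied beforehand. Prelp, at 10.29 and 10.93, was 2.11 ± 0.45 above Ezh2 -/- cells and just missed the threshold (adjusted p = 0.0572), and Dcn, Ogn and Aspn differed by 1.45 ± 0.53, 1.14 ± 0.28 and 1.83 ± 0.55 (adjusted p = 0.179, 0.0752 and 0.115). The count of 1 became 5 without either control array or Ezh2 -/- replicate 1 and 0 without either Ezh1 pre-rescue array, and it was 7 in a fit of all 18 arrays. Against the control 0 of the 10 were higher or lower (limma), with 0.0106% of all genes higher. At an unadjusted p under 0.05, in either direction, there were 3 of the 10 and 1837 of the 18820 genes measured. Omd alone was called higher than the control without control replicate 2, by 0.91 when Ezh1 had been supplied and by 1.13 when Ezh2 had. Between the 2 pre-rescue groups 0 of the 10 differed (limma), and 0% of all genes were lower with Ezh1. At an unadjusted p under 0.05, in either direction, there were 2 of the 10 and 211 of the 18820 genes measured. Fmod stood lower with Ezh1 than with Ezh2 (-0.75) without overlap of the arrays, and that difference did not pass the test.

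When Ezh2 was supplied after the deletion, 1 of the 10 genes differed by the test from pre-rescue, and 0 differed from the control or from Ezh2 -/- cells. Fmod read 8.48 and 8.19 in Ezh2 post-rescue, between Ezh2 -/- cells and control, and overlapped neither. It differed from Ezh2 pre-rescue by -2.03 ± 0.30 (4.08-fold, adjusted p = 0.0319), the only call of the 10 where 0.308% of all genes were lower, a call that was lost when any of the 6 arrays of the 3 rescue groups was left out (adjusted p = 0.0643 to 0.278); the count was 3 or 4 without a control or an Ezh2 -/- array. Dcn read 6.86 and 7.26, lower than on both Ezh2 pre-rescue arrays (9.08 and 9.45), with a difference of -2.21 ± 0.53 (adjusted p = 0.119). All 10 genes had a lower mean in post-rescue than in pre-rescue, 9 of them without overlap, as 26.5% of all genes had, and the median of the 10 was -0.87.

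Against the control, 0 of the 10 passed in Ezh2 post-rescue (limma), with 0.197% of all genes lower. All 10 had a lower mean than in the control, 6 of them without overlap, as 20.8% of all genes had. The median change of the 10 was -0.23, against -0.01 over all genes. At an unadjusted p under 0.05, in either direction, there were 5 of the 10 and 1789 of the 18820 genes measured. The largest differences were those of Fmod (-1.75 ± 0.30, adjusted p = 0.0551), Dcn (-1.74 ± 0.53, adjusted p = 0.293) and Prelp (-1.07 ± 0.45, adjusted p = 0.508). Fmod passed without the replicate block (adjusted p = 0.0264) and with the arrays centred on their medians (0.0147). Against Ezh2 -/- cells 0 of the 10 were called higher (limma), with 0.191% of all genes higher. At an unadjusted p under 0.05, in either direction, there were 1 of the 10 and 2592 of the 18820 genes measured. Fmod was 1.46 ± 0.30 higher (adjusted p = 0.0877, 0.0498 without the block) and Dcn differed by -0.45 ± 0.53 (adjusted p = 0.787). By the 2-fold rule of the study's methods, with an adjusted p under 0.15, 1 gene was called in each of these 2 comparisons. The share of all genes by that rule was not counted.

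The change with Ezh2 loss was set against the change at day 32 in 1 fit of all 18 arrays. Of the 10 genes, 2 had a difference above 0, where 2.48% of all genes did, and 1 below 0, where 5.64% did. Lum changed by -3.57 on day 32 and by -1.002 in Ezh2 -/- cells, a difference of 2.57 ± 0.22 (adjusted p = 3.63e-05). Epyc changed by -1.11 and by -0.20, a difference of 0.91 ± 0.14 (adjusted p = 0.00255), with readings near the low end of the rescue arrays. Fmod went the other way, with a larger fall in Ezh2 -/- cells, and its difference was -1.39 ± 0.36 (adjusted p = 0.0331). The standard deviation over all probe sets was 2.64 to 2.70 per array in the time course and 2.30 to 2.38 in the rescue experiment. Its part in these differences was not tested.

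The genes of the family sit in 3 clusters and 1 lone position. Prelp and Fmod adjoin on chromosome 1, Dcn, Lum, Kera and Epyc on chromosome 10, and Aspn, Omd and Ogn on chromosome 13, with Bgn on X. Of the 24 measured genes that flank these, 3 on each side, 7 rose and 4 fell at day 32, where 18.4% of all genes rose and 14.2% fell, and their median change was 0.01 against -0.02 over all genes. Next to Prelp and Fmod, Btg2, an antiproliferative gene, fell by 1.57 ± 0.10 (adjusted p = 3.16e-06), whereas Chil1, which encodes a chitinase-like protein, rose by 1.50 ± 0.14 (adjusted p = 3.61e-05). Next to Bgn, Dusp9, a MAP kinase phosphatase, rose by 1.80 ± 0.16 (adjusted p = 2.61e-05).

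On chromosome 13 the 3 genes lie inside the span of Cenpp, a centromere protein gene, in the RefSeq annotation, together with Ecm2, which encodes another leucine-rich matrix protein. Ecm2 rose by 1.14 ± 0.17 on day 5 (adjusted p = 0.002) and was lower than vehicle by day 32 (-1.32 ± 0.17, adjusted p = 0.000279), in the same directions as Omd and Ogn. Cenpp went the opposite way, -0.72 ± 0.09 on day 5 (adjusted p = 0.000643) and 0.82 ± 0.09 on day 32 (adjusted p = 7.71e-05). In Ezh2 -/- cells the only flanking gene called was Btg2 (-0.69 ± 0.13, adjusted p = 0.047), next to Fmod.

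**Figure D4:**
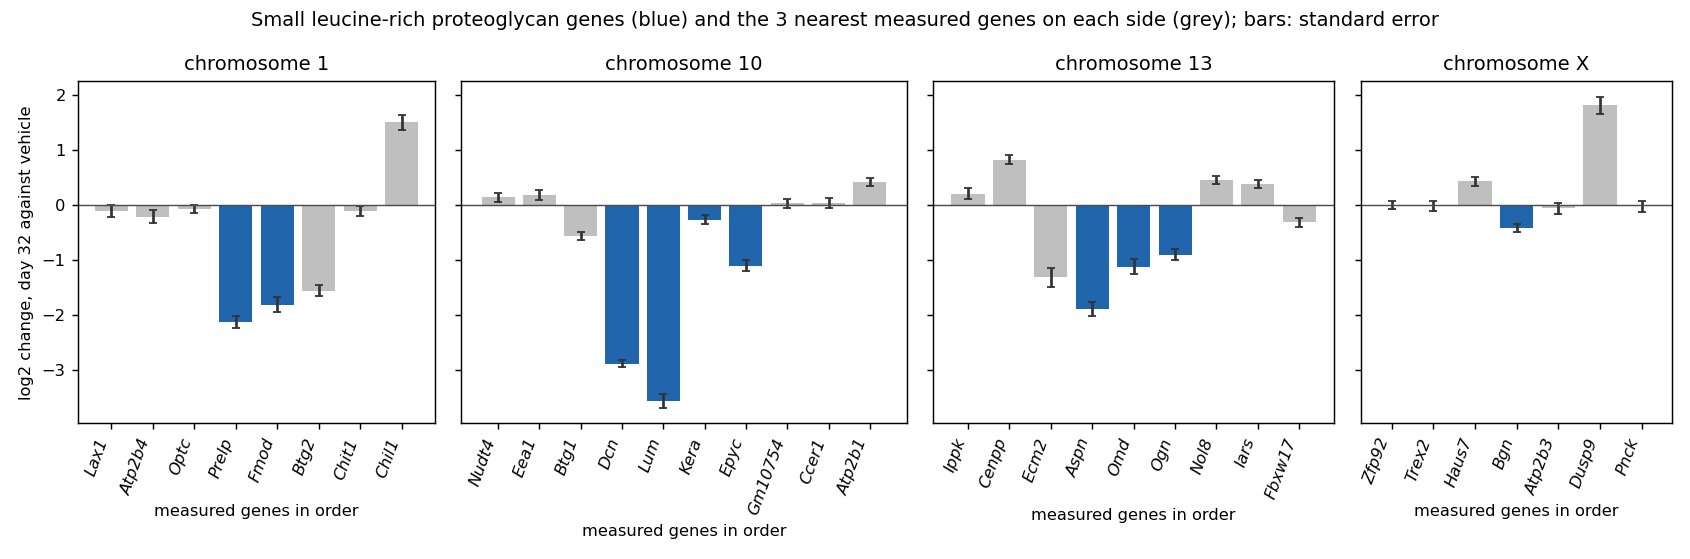
Log2 change at day 32 against vehicle with its standard error for the genes of the family (blue) and the 3 nearest measured genes on each side (grey), in genome order by chromosome. The blue bars all point down, from -0.28 for Kera to -3.57 for Lum, and grey bars point both ways, with Chil1, Cenpp and Dusp9 up and Btg2 and Ecm2 down.

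Over the 9 groups, the genes whose profile lay closest to those of Lum, Dcn and Prelp, the 3 members with the widest range in the time course, were found by the root mean square difference of log2 values centred within each experiment. Cmtm5 was closest to Lum (0.34), Dner to Dcn (0.31) and Sorbs2 to Prelp (0.27), where the nearest other member of the family was Aspn (0.32). By day 32 Dner fell by 2.22 ± 0.08 and Cmtm5 fell by 3.38 ± 0.10. Ranked by correlation instead, Dner and Sorbs2 stayed among the nearest 5 of Dcn and of Prelp, and none of the 5 of Lum did. Within the family, Bgn and Kera, which changed least, were closest to each other (0.15), then Ogn and Omd (0.24), which are neighbours on chromosome 13.

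Genes that build the sugar chains or work with these proteins were taken from lists of 6 to 15 genes. Their counts at day 32 are to be read against the 14.2% of all genes that fell and the 18.4% that rose. Of 6 enzymes that make the linker on which chondroitin and dermatan sulfate start, 0 rose and 3 fell at day 32. Xylt1, the xylosyltransferase of the first step, fell by 2.11 ± 0.08 up to day 32 (adjusted p = 2.3e-07) and changed by -1.35 ± 0.20 in Ezh2 -/- cells (adjusted p = 0.0194). Of 15 genes for chondroitin and dermatan sulfate, 7 fell and 0 rose at day 32, among them the sulfotransferase Chst11 (-1.80 ± 0.09, adjusted p = 9.18e-07) and the chain-starting enzyme Csgalnact1 (-1.79 ± 0.13, adjusted p = 8.76e-06), and 0 were called in Ezh2 -/- cells, where Chst11 stood at -0.92 ± 0.24 (adjusted p = 0.111). Of 7 genes for keratan sulfate, 2 fell at day 32, B3gnt2 (-0.91 ± 0.08, adjusted p = 1.6e-05) and B4galt1 (-0.24 ± 0.07, adjusted p = 0.0279).

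Of 13 collagens that these proteins bind or that share their fibrils, 6 fell and 1 rose at day 32, and 2 fell in Ezh2 -/- cells, Col2a1, the cartilage collagen (-1.04 ± 0.15, adjusted p = 0.0194), and Col6a2 (-0.44 ± 0.08, adjusted p = 0.0422). By day 32 Col11a1 fell by 1.58 ± 0.09 and Col2a1 fell by 1.53 ± 0.13. Among 13 ligands and receptors, 7 rose and 3 fell at day 32: Met, a receptor tyrosine kinase that decorin binds, rose by 2.64 ± 0.12 (adjusted p = 4.59e-07), Tgfbr1 rose by 1.05 ± 0.08 (adjusted p = 1.07e-05), Tgfb2 fell by 1.51 ± 0.11 (adjusted p = 7.04e-06) and Lrp1, the endocytic receptor of decorin, fell by 1.16 ± 0.08. Met and Tgfbr1 also rose in Ezh2 -/- cells, where 1.2% of all genes did, by 2.10 ± 0.39 (adjusted p = 0.0427) and 0.80 ± 0.10 (adjusted p = 0.0115). Of 11 proteases that cleave family members, 4 rose and 4 fell, with Mmp2 at -1.15 ± 0.07 and Adamts1 at 0.92 ± 0.09, and of 10 other proteoglycans 1 rose and 4 fell, with Acan, the large proteoglycan of cartilage, at -1.34 ± 0.16 (adjusted p = 0.000172). Of 7 further leucine-rich proteoglycans, 2 fell and 1 rose, and their median change was -0.21 against -1.48 for the 10 genes.

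**Figure D5:**
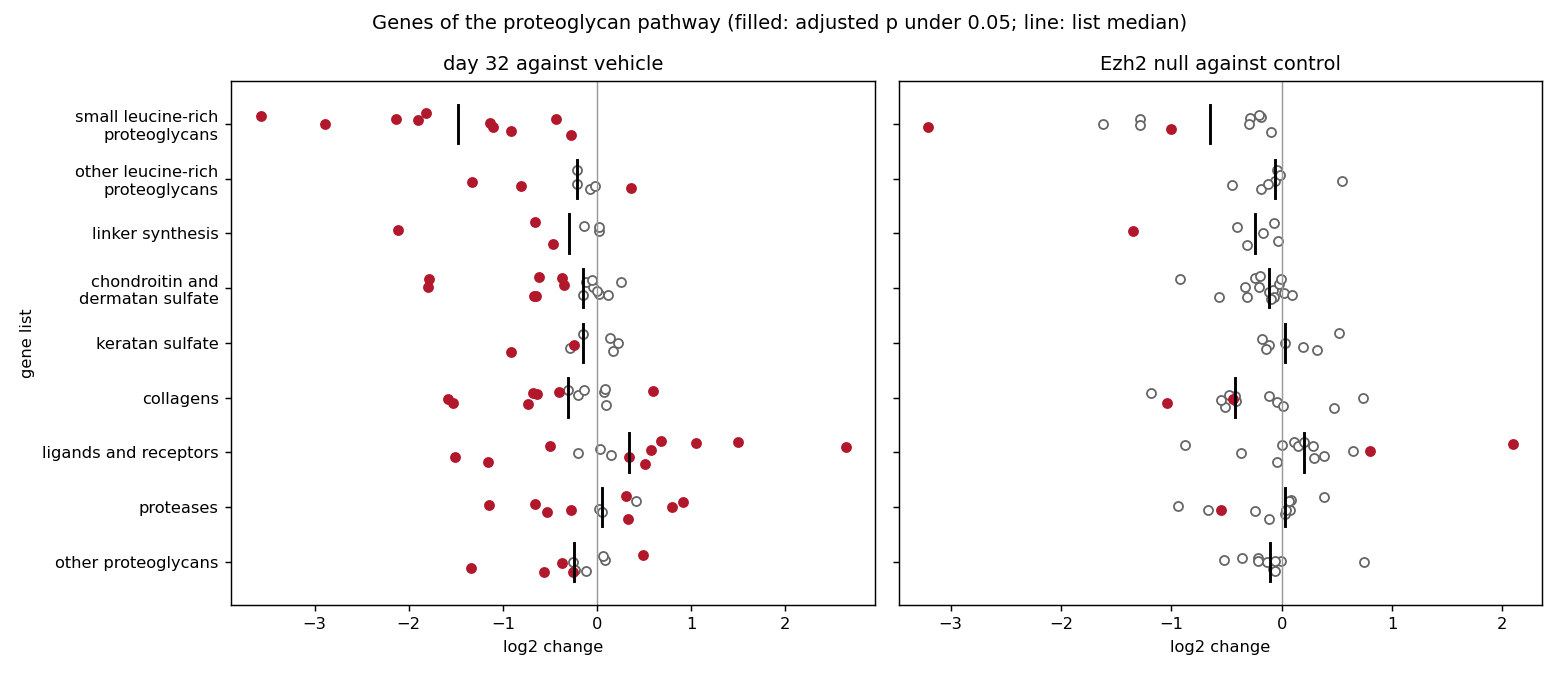
Log2 change at day 32 against vehicle (left) and in Ezh2 -/- against control (right) for each gene of the family and of 8 related lists, filled where the adjusted p was under 0.05, with a black line at each median. At day 32 the median of the family is -1.48 and those of the other lists lie between -0.31 and 0.34.

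Markers of cartilage and tendon and of fibroblasts were read beside the family. The mean of 11 such markers was 7.38 to 7.59 in vehicle, 7.33 to 7.39 on day 5, 6.15 to 6.20 on day 18 and 5.93 to 6.05 on day 32, and 8 of the 11 fell at day 32 (median -0.75). At day 5, 3 of the 11 rose and 3 fell, with a median of -0.215 where that of the family was 0.35. Ucma, a cartilage matrix gene, fell by 5.56 ± 0.14 (adjusted p = 1.86e-08) and Cnmd, which encodes chondromodulin, fell by 4.71 ± 0.09 (adjusted p = 9.03e-09). In the rescue experiment the mean was 8.56 to 8.67 in the control, 7.51 to 7.60 in Ezh2 -/- cells, 8.13 to 8.35 in Ezh1 pre-rescue, 8.30 to 8.57 in Ezh2 pre-rescue and 8.12 to 8.19 in Ezh2 post-rescue, with 5 of 11 lower in Ezh2 -/- cells than in the control. Against Ezh2 -/- cells, 2 of the 11 were higher in Ezh2 post-rescue (median 0.76), where 0 of the family were (median 0.16). The mean of the 10 fibroblast markers was 9.32 to 9.34 in vehicle, 9.60 to 9.66 on day 5 and 9.17 to 9.23 on day 32. At day 5, when 5 of the family rose, 5 of these 10 rose and 0 fell (median 0.25), and at day 32, 1 rose and 3 fell. Of all genes measured, 11% rose and 1077 of the 18820 fell at day 5, and 18.4% rose and 14.2% fell at day 32. In Ezh2 -/- cells 0.755% were lower than in the control, and 0.191% were higher in Ezh2 post-rescue than in Ezh2 -/- cells. The part of the 2 marker lists in the changes of the family was not tested.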

How the data were processed

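Each of 18 RNA samples was hybridised to 1 Affymetrix Mouse Gene 1.1 ST array. The deposited values are on a log2 scale and were made by the authors with RMA in oligo. A batch difference between first and second replicates of the rescue experiment was, by the methods, removed with a limma model; whether the deposited values carry it is not given in the sources used here, and the median difference between replicate numbers was 0.704 times that expected from the spread between arrays, against 1.09 times in the time course. The genome build behind the array annotation is not given in the sources used here.

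Of 28440 probe sets, 21217 carried 1 symbol, 1881 several and 5342 none. Of several probe sets for a gene, that of highest mean was used, giving 18820 genes. The 10 genes and the related gene lists were chosen with earlier results of these data known. Named genes were all 10 members, the targeted genes, the flanking genes, the genes nearest in profile and, per list, up to 3 genes with the smallest adjusted p at day 32 and up to 2 in Ezh2 -/- cells; from the cartilage and tendon markers Ucma and Cnmd, and from the flanking genes those described, were chosen after their values were seen.

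Group means were estimated and compared in limma 3.58.1 under R 4.3.3 by lmFit and eBayes. The time course had no block (4 residual degrees of freedom), the rescue experiment had the replicate number as a block because of the stated batch (4 residual), and the 2 experiments were set against each other in a model of all 18 arrays (8 residual). Tests were two-sided, p-values were adjusted by Benjamini-Hochberg over all genes, and calls were made below an adjusted p of 0.05. The RankProduct test of the methods was not run; its thresholds were applied to the limma fit as an alternative. The other alternatives were quantile normalization, median centring, leaving out the lowest 30% of genes, the mean of all probe sets, an intensity trend with robust variance, the replicate block and leaving out each array. The fits were tested on simulated data. The labels do not say whether the 2 arrays of a group came from separate cultures. A figure legend of the study states 2 biological replicates for the time course and for the rescue with Ezh1 or Ezh2 supplied beforehand. It does not say how these were made, and it does not cover Ezh2 post-rescue. The p-values reflect the spread between these samples alone, and their small number limits the precision. Promoter stretches are from RefSeq (GRCm38.p6).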

Additional observations from a re-analysis of the deposited data

Results flagged for a closer look

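For 3 of the 10 genes the change in Ezh2 -/- cells against control differed from the change at day 32 against vehicle, by a test of the difference itself in 1 limma fit of all 18 arrays (adjusted p over all genes). The difference was 2.571 for Lum (adjusted p = 3.63e-05), which changed by -3.57 at day 32 and by -1.002 in Ezh2 -/- cells, and its sign was the same under every alternative run. It was 0.905 for Epyc (adjusted p = 0.00255), which changed by -1.11 and by -0.20, with Epyc below the 30th percentile of genes on every array of the rescue experiment. It was -1.387 for Fmod (adjusted p = 0.0331), which changed by -1.82 and by -3.21. The difference of Fmod no longer passed without vehicle replicate 1 (-1.16), day 32 replicate 1 (-1.27), day 32 replicate 2 (-1.51), control replicate 2 (-1.01) or Ezh2 -/- replicate 2 (-0.87). With 2 arrays in each group, no array was tested as an outlier.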

How the results depend on the processing

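No change of any of the 10 genes that was called reversed its sign under any alternative run. All 10 genes fell at day 32 with 9 to 10 called when single arrays were left out, 8 fell at day 18 with 8 to 9, and 9 fell from day 5 to day 18 with 9 each time. Other ranges over single arrays left out were 3 to 6 for the 5 that rose at day 5, 3 to 6 for the 6 that fell from day 18 to day 32, 1 to 4 for the 2 that fell in Ezh2 -/- cells, 0 to 1 for the counts of 0 in Ezh1 pre-rescue, Ezh2 pre-rescue and Ezh2 post-rescue against control, 0 to 5 for the 1 higher in Ezh1 pre-rescue than in Ezh2 -/- cells, 0 to 8 for the 4 in Ezh2 pre-rescue, 0 to 2 for the 0 in Ezh2 post-rescue, and 0 to 4 for the 1 lower in post-rescue than in pre-rescue. For the difference between experiments they were 0 to 1 for the 1 below 0 and 2 to 6 for the 2 above 0, with 5 without control replicate 2 and 6 without Ezh2 -/- replicate 2. With the arrays centred on their medians, which moved the median of all genes by -0.15 at day 5, -0.16 at day 18 and -0.12 at day 32, the counts were 3 at day 5, 1 for post-rescue against control, 3 and 7 for Ezh1 and Ezh2 pre-rescue against Ezh2 -/- cells, 1 for post-rescue against Ezh2 -/- cells and 2 against pre-rescue. A fit of all 18 arrays gave 2 at day 5, 2 from day 18 to day 32, 4 in Ezh2 -/- cells, 3 for post-rescue against control, 7, 8 and 1 for Ezh1 pre-rescue, Ezh2 pre-rescue and post-rescue against Ezh2 -/- cells, and 5 for post-rescue against pre-rescue. An adjusted p under 0.15 with at least 2-fold gave 0 at day 5, 4 at day 18, 1 from day 18 to day 32, 1 for post-rescue against control, 4 for Ezh1 pre-rescue and 1 for post-rescue against Ezh2 -/- cells, and 3 for post-rescue against pre-rescue. Quantile normalization gave 9 at day 32, without Kera, and 2 for Ezh1 pre-rescue against Ezh2 -/- cells. An intensity trend with robust variance gave 0 for the difference below 0 between experiments, where Fmod had an adjusted p of 0.0619. The cause of these shifts was not tested, and the shares of all genes called under these alternatives are not given.

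Without the replicate block in the rescue experiment the counts were 1 for post-rescue against control, 2 for Ezh1 pre-rescue and 1 for post-rescue against Ezh2 -/- cells, and 2 for post-rescue against pre-rescue. Same-numbered arrays of different groups had correlations of deviations from -0.43 to 0.54 over 10 pairs of groups there and from -0.07 to 0.05 over 6 pairs in the time course, so in the time course the numbers were not taken as pairing; in the rescue experiment the block stands for the batch that the methods state. With the number as a block in the time course the counts were 4 at day 5, without Prelp, 8 at day 18, 10 at day 32, 9 from day 5 to day 18 and 5 from day 18 to day 32, without Ogn (adjusted p = 0.0692). With the lowest 30% of genes left out Kera and Epyc have no value. The nearest genes by correlation shared 0, 1 and 1 of 5 with those of Lum, Dcn and Prelp.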
